A study of Mus musculus with 12 samples.

Results

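Pdk4 and 9 other genes that steer cells between glucose and fatty acid as fuel were examined in tongue epithelium of Langerin-DTR mice. The 10 genes were chosen by name, because Pdk4 was already known to fall in these samples, and all 10 were found among 49164 genes with counts. In 6 samples mice had received diphtheria toxin (DT), which kills cells carrying the human toxin receptor placed under langerin. In 6 samples they had received PBS, and these mice carried the same receptor allele. Injections in both groups began at 2 weeks of age and were given 2 times a week. The receptor is expressed in every langerin-positive cell, which includes Langerhans cells, the antigen-presenting cells of stratified epithelium, and some other dendritic cells. The epithelium was peeled off with dispase, digested, and its mRNA sequenced with a stranded kit as whole tissue. Nothing in the labels states that each sample is a separate mouse, so p-values measure only the spread between these samples.

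Pyruvate dehydrogenase converts pyruvate from glycolysis to acetyl-CoA, and pyruvate dehydrogenase kinases, encoded by Pdk1, Pdk2, Pdk3 and Pdk4, phosphorylate the complex and switch it off. Pdk4 is the form best known for induction in fasting, by fatty acids acting on PPAR receptors, by glucocorticoids and by FOXO factors, mainly in muscle, heart and liver. When it is high, glucose carbon is spared and fatty acids are burned. The other genes cover that fatty acid side: Cpt1a encodes the carnitine palmitoyltransferase that admits fatty acids to mitochondria, and Acadm a dehydrogenase of the first step of beta-oxidation. Angptl4 encodes a secreted inhibitor of lipoprotein lipase, Plin2 a coat protein of lipid droplets, Ppard a fatty-acid-sensing nuclear receptor and Ppargc1a a coactivator of mitochondrial genes.

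The sequences before the start sites of the 4 kinase genes are shown so that the one that fell can be set beside its 3 relatives. They are the 250 bases before the RefSeq start on GRCm38.p6, given 5′ to 3′ on the gene's own strand, with GGGCGG, the core letters bound by SP1, in capitals on either strand. The Pdk4 sequence is chr6:5496279-5496528 on the minus strand, Pdk1 is chr2:71872974-71873223 on the plus strand, Pdk2 is chr11:95041372-95041621 on the minus strand and Pdk3 is chrX:93832151-93832400 on the minus strand.
Pdk4: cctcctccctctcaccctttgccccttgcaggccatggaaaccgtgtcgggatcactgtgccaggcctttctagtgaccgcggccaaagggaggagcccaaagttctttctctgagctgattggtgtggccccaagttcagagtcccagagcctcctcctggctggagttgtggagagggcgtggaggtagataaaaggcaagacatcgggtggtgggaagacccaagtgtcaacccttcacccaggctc
Pdk1: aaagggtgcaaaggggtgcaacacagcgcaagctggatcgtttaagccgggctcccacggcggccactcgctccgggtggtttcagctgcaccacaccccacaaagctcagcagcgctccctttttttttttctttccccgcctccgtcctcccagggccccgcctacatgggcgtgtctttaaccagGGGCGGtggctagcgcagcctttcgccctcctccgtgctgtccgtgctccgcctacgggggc
Pdk2: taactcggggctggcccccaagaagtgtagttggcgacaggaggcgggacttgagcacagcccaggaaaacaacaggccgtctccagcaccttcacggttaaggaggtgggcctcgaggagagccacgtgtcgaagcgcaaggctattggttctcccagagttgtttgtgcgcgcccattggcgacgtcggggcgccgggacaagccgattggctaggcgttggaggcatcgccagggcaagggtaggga
Pdk3: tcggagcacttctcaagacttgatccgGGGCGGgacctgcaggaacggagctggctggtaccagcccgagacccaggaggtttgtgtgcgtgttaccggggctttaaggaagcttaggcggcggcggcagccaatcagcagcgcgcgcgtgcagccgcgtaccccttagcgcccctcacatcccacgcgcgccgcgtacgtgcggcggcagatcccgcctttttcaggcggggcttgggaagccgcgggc

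Windows of 300 bases, these 250 and the next 50, were matched for 9 of the 10 genes; Angptl4 had none. They make 11 windows, against 32851 windows over 27025 genes in the whole table. Pdk1 and Pdk2 have 2 windows each, for 2 start sites, and the printed sequences are from those with more CpG. The Pdk4 window held 12 CpG pairs and 60.7% G and C. The Pdk1 windows held 25 CpG and 66.0% and, for the other start, 2 CpG and 40.3%. The Pdk2 windows held 25 CpG and 64.7% and, for the other start, 13 CpG and 57.7%. The Pdk3 window held 35 CpG and 68.0%. Over all windows the medians were 7 CpG and 52.7%, and 60.4% of windows held fewer CpG than that of Pdk4. The letters GGGCGG were in 5 of the 11 windows, those of Cpt1a, Pdk1, Pdk3, Plin2 and Ppard, and in 35.7% of all windows; the Pdk4 window had none on either strand. The direct repeat read by PPAR with its RXR partner, AGGTCA given 2 times with any 1 base between, was in none of the 11 windows and in 0.0396% of all. TCAAGGTCA, read by oestrogen-related receptors, was in none of the 11 and in 0.423% of all, and TGTTTAC, read by FOXO factors, in none of the 11 and in 3.65% of all. The direct repeat and the oestrogen-related receptor letters share AGGTCA and were searched on both strands as well. These letters describe short windows only, and no binding was measured.

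Total counts were 21226436 to 34333949 per sample, so that 3 counts, taken here as the limit of detection, were worth 0.0813 to 0.143 CPM (read counts scaled to TMM-normalized library size). Cd207, which encodes langerin, had 4 counts over the 6 DT samples and 429 over the 6 PBS samples, so that the samples bore out their labels. Of 14231 genes with enough counts to test, 185 (1.30%) passed an adjusted p of 0.05 by edgeR's quasi-likelihood test, 63 higher in DT (0.443%) and 122 lower (0.857%). All 10 of the fuel genes passed the filter on low counts. The largest axis of variation over all genes (first principal component) did not follow treatment: DT 4, DT 5, DT 6 and PBS 1 to PBS 4 lay on one side, and DT 1, DT 2, DT 3, PBS 5 and PBS 6 on the other. The labels give no batch that matches this split.

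Pdk4 was lower in DT. It had 8.57, 15.2, 11.7, 5.68, 7.19 and 12.7 CPM in DT samples 1 to 6, against 21.4, 29.6, 33.5, 14.7, 22.6 and 17.3 CPM in PBS samples 1 to 6. The groups met at a single point, where DT 2 exceeded PBS 4, and the other 5 DT samples lay below every PBS sample. Means were 10.2 ± 3.62 CPM in DT and 23.2 ± 7.18 CPM in PBS (SD, n = 6 each), from 1887 counts in DT and 3520 in PBS. The log2 fold change was -1.19 with a standard error of 0.23 and a 95% interval of -1.68 to -0.71, and edgeR's adjusted p was 0.0223. Pdk4 was chosen for this fall, so these values describe it and test nothing. Among all tested genes it was the 59th by p, and its log2 fold change was the 16th lowest.

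**Figure D1:**
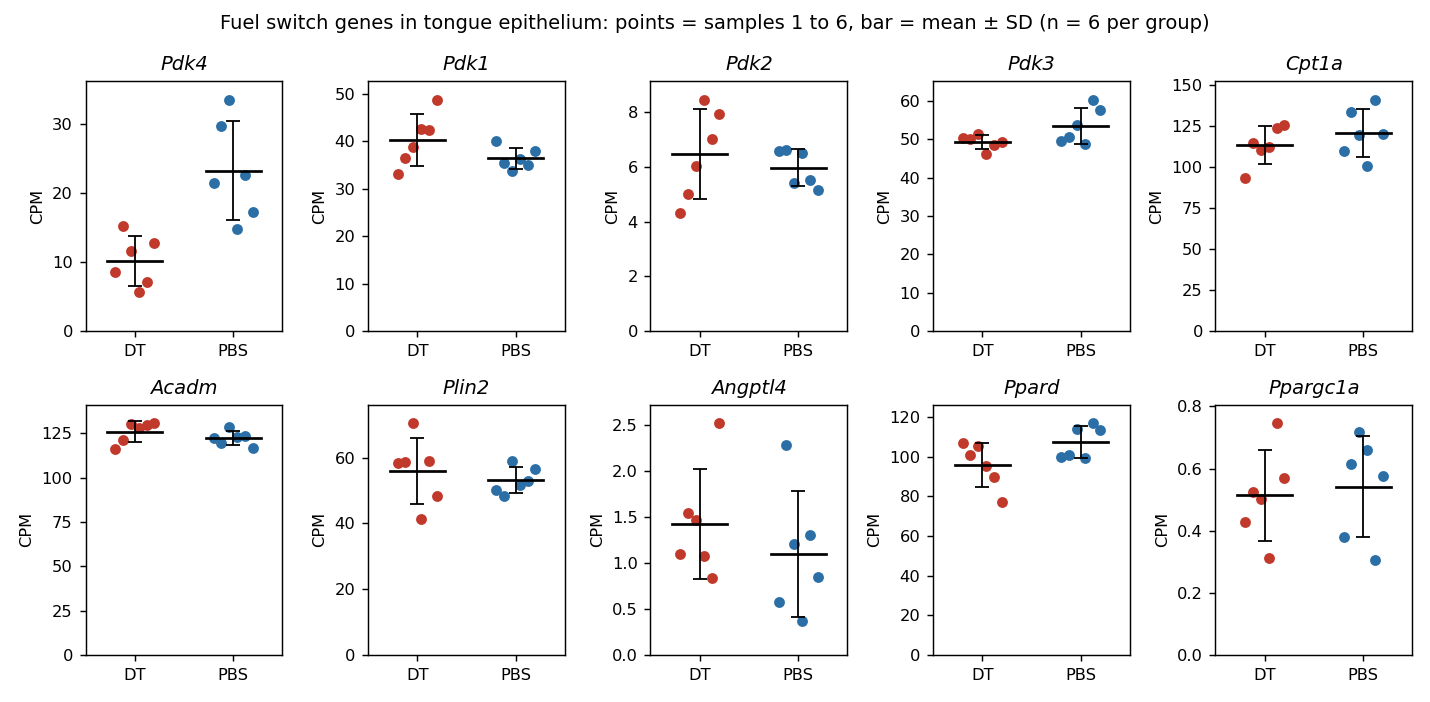
CPM of each of the 10 genes (y axis of each panel, from 0) in the 6 DT samples (left) and the 6 PBS samples (right); each point is a sample and bars are the mean and SD. Only in the Pdk4 panel are the groups nearly apart, at 10.2 ± 3.62 CPM in DT and 23.2 ± 7.18 CPM in PBS; in the other 9 panels they overlap.

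The same values divided by the main axis of variation are also a description, since all 12 samples entered the choice of Pdk4. Among DT 4, DT 5, DT 6 and PBS 1 to PBS 4 the log2 fold change was -1.53. Among DT 1, DT 2, DT 3, PBS 5 and PBS 6 it was -0.75 and did not pass (edgeR's adjusted p = 0.140), and the difference between the sides was not tested. With the axis as a covariate over all 12 samples it was -1.20. The call was lost without PBS 2 (adjusted p = 0.0535), PBS 3 (0.0575) or DT 5 (0.0644), while the log2 fold change stayed between -1.34 and -1.05 whichever sample was left out.

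Muscle and blood, which the peeled epithelium can carry along, had transcripts that differed in level between samples. Skeletal muscle makes much Pdk4. The summed level of 13 muscle markers was 10.3, 23.5, 16.4, 12.9, 27.0 and 51.5 CPM in DT samples 1 to 6, against 103, 30.8, 77.0, 33.0, 7.26 and 11.8 CPM in PBS samples 1 to 6. PBS 1 and PBS 3 were the highest, and PBS 3 was also the highest in Pdk4; PBS 5 and PBS 6, with Pdk4 at 22.6 and 17.3 CPM, were among the lowest in muscle markers, and DT 6 was the highest DT sample in muscle markers. The sum averaged 23.6 CPM in DT and 43.8 CPM in PBS. All 11 tested muscle markers were lower in DT, with log2 fold changes from -1.52 (Myh1) to -0.30 (Tnni2). Of these 11 edgeR and DESeq2 each called 0, and 1 had an unadjusted p under 0.05 by edgeR. Over all tested genes edgeR called 1.30%, DESeq2 called 3.87% and 15.4% had such an unadjusted p. These shares are the background for each marker list. With the muscle sum as a covariate, an alternative added after the data were seen, the Pdk4 log2 fold change was -1.12. Summed erythrocyte markers were at 17.2, 22.2, 25.5, 19.6, 15.8 and 18.7 CPM in DT samples 1 to 6, against 20.5, 24.1, 49.9, 51.5, 33.6 and 50.6 CPM in PBS samples 1 to 6. PBS 3 to PBS 6 lay above every DT sample and PBS 1 and PBS 2 within the DT range, so that blood transcripts were lower in DT along with Pdk4. Of 5 tested erythrocyte markers 3, the haemoglobin genes Hba-a1, Hba-a2 and Hbb-bs, fell in DT by edgeR (beside 1.30% of all tested genes called). DESeq2 called 4 (beside 3.87%), and all 5 had an unadjusted p under 0.05 by edgeR (beside 15.4%). Of 9 adipocyte markers, Adipoq, Cfd and Cidec were at 0 in all samples, Plin1, Lep and Retn had 5 counts or fewer in either group, and 3 were tested: Lipe, at 46.0 CPM in DT and 53.8 CPM in PBS, Adig, at 0.903 CPM in DT and 0.590 CPM in PBS, and Fabp4, at 0.537 CPM in DT and 0.776 CPM in PBS. Of those 3, edgeR and DESeq2 each called 0, and 1 had an unadjusted p under 0.05. The part of these transcripts in the Pdk4 result was not tested. Keratinocyte markers summed to 111000 to 140100 CPM in DT and 131800 to 161000 CPM in PBS, which fits the labelled tissue. In whole tissue, fewer cells that make a transcript and less transcript per cell cannot be told apart.

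The other 3 kinase genes did not pass the test. Pdk1 had 33.2, 36.4, 38.9, 42.6, 42.4 and 48.8 CPM in DT samples 1 to 6, against 40.0, 35.4, 33.8, 36.2, 35.0 and 38.1 CPM in PBS samples 1 to 6. DT 4, DT 5 and DT 6 lay above every PBS sample and DT 1 below them all. The log2 fold change was 0.15 (95% interval -0.02 to 0.32, edgeR's adjusted p = 0.396). Pdk2, the most widely expressed form in other tissues, had 4.30, 5.01, 6.04, 8.45, 7.01 and 7.94 CPM in DT samples, against 6.56, 6.62, 5.41, 6.51, 5.50 and 5.15 CPM in PBS samples. Its 3 highest values were again DT 4, DT 5 and DT 6 and its lowest were DT 1 and DT 2, so that DT samples spanned the whole PBS range (log2 fold change 0.13, 95% interval -0.18 to 0.44, adjusted p = 0.742). Pdk3 had 50.4, 50.2, 51.5, 46.2, 48.5 and 49.4 CPM in DT samples, against 49.6, 50.7, 53.7, 48.8, 60.4 and 57.6 CPM in PBS samples. PBS 5 and PBS 6 lay above the rest, and all DT samples lay within or below the PBS range (log2 fold change -0.12, 95% interval -0.24 to 0.01, adjusted p = 0.372). The intervals of all 3 exclude a fall as large as that of Pdk4.

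In CPM per kilobase of annotated exon, used to compare genes of unlike length, Pdk3 was the main kinase transcript of this epithelium. It made up 65.7 ± 3.24% of the summed level of the 4 genes in DT and 61.4 ± 4.11% in PBS (SD, n = 6 each). The share of Pdk4 was 9.75 ± 3.11% in DT, with 5.82 to 14.3% over samples, against 19.2 ± 4.98% in PBS, with 14.0 to 26.1%. Pdk1 made 17.6 ± 2.08% in DT and 13.8 ± 1.63% in PBS, and Pdk2 made 6.95 ± 1.80% in DT and 5.58 ± 0.945% in PBS. On this scale Pdk4 was therefore above Pdk1 in the PBS means and below it in the DT means. That change of order rests on the exon lengths, 7779 bases for Pdk1 and 3511 for Pdk4, which join all annotated exons of a gene. In CPM Pdk1 was above Pdk4 in both groups, at means of 36.4 and 23.2 CPM in PBS and 40.4 and 10.2 CPM in DT. The shares of the pair overlapped in PBS. In DT every Pdk1 share, at 15.4 to 19.8%, was above every Pdk4 share. In CPM per kilobase the ranges of the pair overlapped in both groups. The 4 genes summed to 29.4 ± 1.59 CPM per kilobase in DT and 34.1 ± 2.47 CPM per kilobase in PBS. Since shares add to a whole, a lower share of Pdk4 makes the other shares higher by construction.

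**Figure D2:**
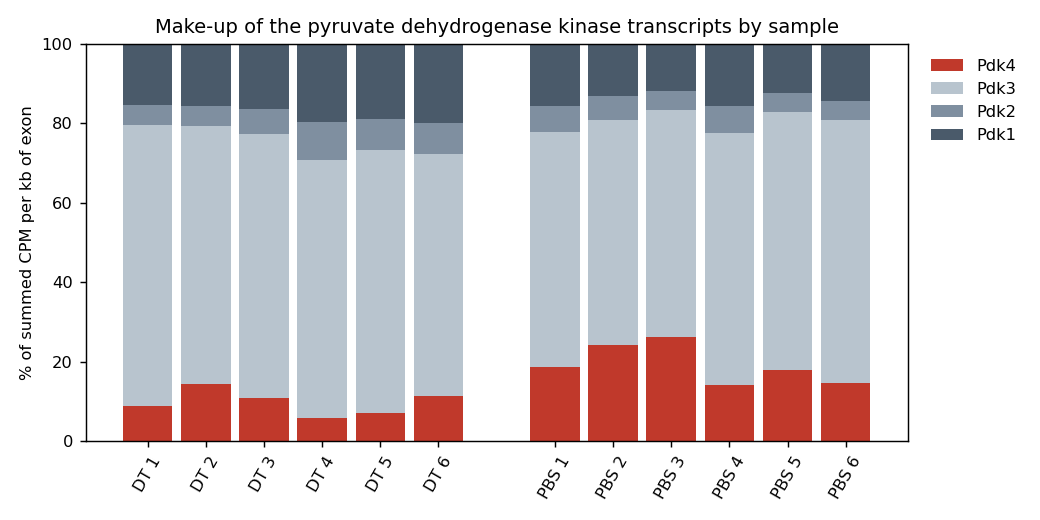
Share of each pyruvate dehydrogenase kinase gene in the summed level of the 4 (y axis, percent of summed CPM per kilobase) for each DT sample (left) and each PBS sample (right). Pdk3 makes up most of every bar, and the Pdk4 segment is 5.82 to 14.3% in DT samples and 14.0 to 26.1% in PBS samples.

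Cpt1a and Acadm, the 2 enzymes of fatty acid entry and oxidation among the 10 genes, were far more abundant than Pdk4 and differed little between the groups. Cpt1a had 93.5, 115, 111, 113, 124 and 126 CPM in DT samples, against 110, 134, 119, 101, 141 and 120 CPM in PBS samples. The lowest value was DT 1 and the highest PBS 5, and the rest were mixed (log2 fold change -0.09, 95% interval -0.27 to 0.09, edgeR's adjusted p = 0.674). Scaled by library size alone the sign turned, at 0.02. Acadm had 116, 121, 130.2, 128, 129.7 and 130.7 CPM in DT samples, against 122, 119.7, 128.5, 123, 124 and 117 CPM in PBS samples. Its log2 fold change of 0.04 had a narrow 95% interval, -0.06 to 0.14 (adjusted p = 0.738), which excludes a change as large as that of Pdk4.

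Angptl4, which other tissues induce together with Pdk4 under fatty acids, was near the low end of detection. It had 1.10, 1.54, 1.47, 1.07, 0.835 and 2.52 CPM in DT samples, against 0.570, 2.28, 1.21, 0.366, 1.30 and 0.847 CPM in PBS samples. The groups overlapped over most of their range, and DT 6 and PBS 2 were the highest of each (log2 fold change 0.40, 95% interval -0.36 to 1.15, edgeR's adjusted p = 0.651). Plin2 had 58.4, 58.6, 70.5, 41.4, 59.1 and 48.2 CPM in DT samples, against 50.3, 48.4, 58.9, 51.5, 52.9 and 56.7 CPM in PBS samples. DT 3 was the highest and DT 4 the lowest, with the PBS samples between them (log2 fold change 0.08, 95% interval -0.14 to 0.29, adjusted p = 0.784).

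Ppard was the abundant regulator and Ppargc1a nearly absent. Ppard had 107, 101, 105, 95.1, 89.9 and 77.0 CPM in DT samples, against 99.7, 101, 114, 99.4, 117 and 113 CPM in PBS samples. DT 4, DT 5 and DT 6 lay below every PBS sample, and DT 1, DT 2 and DT 3 within the PBS range. Its log2 fold change of -0.16 (95% interval -0.33 to -0.00) had an unadjusted p of 0.0490 and an adjusted p of 0.322 by edgeR. With the main axis of variation as a covariate it was -0.20 (edgeR's adjusted p = 0.0186). That setting called 1325 of all 14231 tested genes, against 185 in the main fit, and its covariate was taken from the same expression values. Ppargc1a had 0.311 to 0.746 CPM in DT samples and 0.306 to 0.718 CPM in PBS samples, from 97 counts in DT and 84 in PBS. At this depth no difference was detectable, with a log2 fold change of -0.08 and a 95% interval of -0.61 to 0.44 (adjusted p = 0.914).

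Of the 10 genes, then, edgeR called 1, Pdk4, beside 1.30% of all tested genes, a count that the choice of Pdk4 fixes. Of the other 9 edgeR called 0 and DESeq2 called 0 (beside 3.87% of all genes it tested), and 1, Ppard, had an unadjusted p under 0.05 by edgeR (beside 15.4% of all tested genes). The 2 groups did not overlap for 0 of the 10, beside 2.21% of all tested genes.

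**Figure D3:**
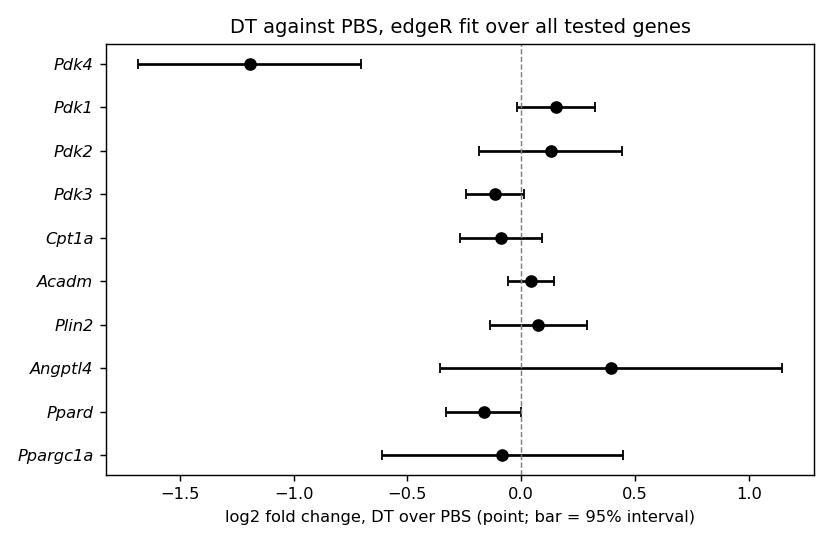
Log2 fold change of each of the 10 genes (x axis, DT over PBS, points) with its 95% interval (lines). Pdk4 lies at -1.19 with an interval of -1.68 to -0.71, and the intervals of the other genes reach or come close to 0.

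Per kilobase of exon the order of levels in DT was Acadm at 32.2 CPM per kilobase, Pdk3 at 19.3, Plin2 at 16.0, Cpt1a at 14.9, Ppard at 12.8, Pdk1 at 5.19, Pdk4 at 2.90, Pdk2 at 2.04, Angptl4 at 0.402 and Ppargc1a at 0.0779. In PBS it was Acadm at 31.3 CPM per kilobase, Pdk3 at 20.9, Cpt1a at 15.8, Plin2 at 15.1, Ppard at 14.3, Pdk4 at 6.61, Pdk1 at 4.68, Pdk2 at 1.88, Angptl4 at 0.309 and Ppargc1a at 0.0822. In DT, neighbours from Pdk3 to Ppard overlapped in their sample ranges, as did Pdk1 with Pdk4 and Pdk4 with Pdk2. In PBS, Cpt1a overlapped Plin2, Plin2 overlapped Ppard, Pdk4 overlapped Pdk1, and Angptl4 overlapped Ppargc1a. Every other step in either order was wider than the spread of the samples.

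Pdk4 also varied widely among samples of one group. It spanned a 2.67-fold range in DT and a 2.28-fold range in PBS, with coefficients of variation of 35.6% in DT and 30.9% in PBS. Its within-group SD was 0.493 on the log2 CPM scale, against a median of 0.167 over all tested genes; 95.4% of all tested genes varied less, as did 100% of the 500 genes nearest to it in mean level. Angptl4, with 10 to 93 counts per sample, varied more, with an SD of 0.715. Of the 500 genes nearest to Angptl4 in mean level, 97.8% varied less. Acadm, at 0.0591, had an SD above that of only 2.12% of all tested genes and 6.2% of the 500 nearest to it in mean level.

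Within the groups, samples high in Pdk4 tended to be high in Angptl4. After the group means were removed, Pearson's r between them was 0.729 (permutation p = 0.00754) and Spearman's rho was 0.762 (permutation p = 0.00603) over 12 samples. Adjusted over the 9 relations of Pdk4 with the other genes the values were 0.0679 and 0.0543, so neither passed, and 0 of the 9 relations did. Without DT 4 and DT 2, the 2 samples farthest in Pdk4, r was 0.827. Within DT alone r was 0.744 (exact permutation p = 0.0819) and within PBS alone 0.787 (exact permutation p = 0.0653, n = 6 each). The other 8 relations had r of -0.290 to 0.360 and adjusted p of 0.684 or more. As Angptl4 did not share the shift of Pdk4 between groups, the ratio of their CPM separated them: 7.77, 9.84, 7.92, 5.29, 8.61 and 5.05 in DT samples 1 to 6, against 37.6, 13.0, 27.7, 40.3, 17.4 and 20.4 in PBS samples 1 to 6. Every DT ratio was below every PBS ratio. This ratio was formed after the values were seen and contains the fall of Pdk4, so it is a description.

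**Figure D4:**
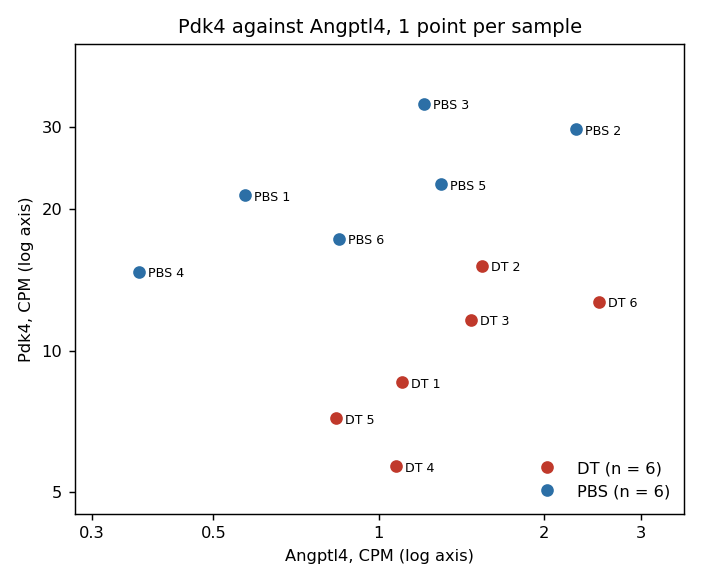
Pdk4 (y axis, CPM, log scale) against Angptl4 (x axis, CPM, log scale), one point per sample, for DT and PBS. Both groups slope upward, and at a like Angptl4 level the DT points lie below the PBS points, with ratios of 5.05 to 9.84 in DT and 13.0 to 40.3 in PBS.

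Over the 12358 tested genes that averaged 1 CPM or more, the within-group pattern most like that of Pdk4 was that of Fam83c (r = 0.920 over 12 samples), followed by Ccdc125 (0.820), Map3k13 (0.818), which encodes a kinase of the JNK cascade, Gpr179 (0.810) and Hars2 (0.807), which encodes the mitochondrial histidyl-tRNA synthetase. The most opposed were Hsdl1 (-0.874), Ctnnd2 (-0.850), Edn1 (-0.834), which encodes endothelin-1, Gas1 (-0.828) and Zcwpw1 (-0.823). These are the extremes of a large search and are given as a description. Scaled by library size alone, r fell to 0.642 for Fam83c and 0.686 for Hars2. Fam83c had 142 ± 5.60 CPM in DT and 159 ± 6.54 CPM in PBS (edgeR's adjusted p = 0.119).

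The wider pathway was read through 10 lists holding 147 genes, of which 124 could be tested. By edgeR 1 of the 124 rose, 0 fell, and 29 had an unadjusted p under 0.05; DESeq2 called 7. Over all tested genes edgeR called 1.30%, 15.4% had an unadjusted p under 0.05, and DESeq2 called 3.87%; these shares are the background for each list that follows. The median log2 fold change over the 124 was 0.01, and that over all tested genes was also 0.01, with 65 positive and 59 negative values.

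Sgk1, a kinase gene induced by glucocorticoids, was the gene that rose. It had 187 to 200.1 CPM in DT samples, with a median of 190.3, against 140.0 to 182 CPM in PBS samples, with a median of 157. Every DT sample was above every PBS sample, with a log2 fold change of 0.27 (edgeR's adjusted p = 0.0435). The call held when PBS 6 or DT 1 was left out and was lost when any other single sample was, with adjusted p of up to 0.0977. The list of Sgk1 covers the glucocorticoid receptor and some of its targets. Of the other 12 tested genes of that list 0 were called by edgeR or DESeq2. By edgeR 2 had an unadjusted p under 0.05, both lower in DT: Nfkbia (log2 fold change -0.17, adjusted p = 0.182) and Zbtb16 (-0.82, adjusted p = 0.188). Per1 was at 0.27 (adjusted p = 0.483). The median of the list was 0.05.

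The carnitine shuttle and mitochondrial beta-oxidation list had 10 of 19 tested genes at an unadjusted p under 0.05, 5 higher and 5 lower in DT, though edgeR called 0 after adjustment and DESeq2 called 3. Over all tested genes 15.4% had such an unadjusted p, edgeR called 1.30% and DESeq2 called 3.87%, and 2.21% had groups that did not overlap. Both transport steps after Cpt1a were on the lower side. Cpt2, the inner membrane palmitoyltransferase, had 23.2 ± 2.31 CPM in DT and 28.9 ± 2.88 CPM in PBS (log2 fold change -0.32, edgeR's adjusted p = 0.0580). Slc25a20, the carnitine-acylcarnitine carrier, had 25.6 to 30.8 CPM in DT and 31.2 to 35.0 CPM in PBS, with no overlap (-0.24, adjusted p = 0.0609). Hadha, a subunit of the trifunctional enzyme, had 185 to 201 CPM in DT and 208 to 228 CPM in PBS, also with no overlap (-0.19, adjusted p = 0.0673). Echs1, the enoyl-CoA hydratase, was on the higher side, with 33.0 ± 3.03 CPM in DT and 27.6 ± 2.52 CPM in PBS (0.25, adjusted p = 0.0982). DESeq2 called Cpt2, Slc25a20 and Hadha. The median of the list was 0.03, close to that of all genes.

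**Figure D5:**
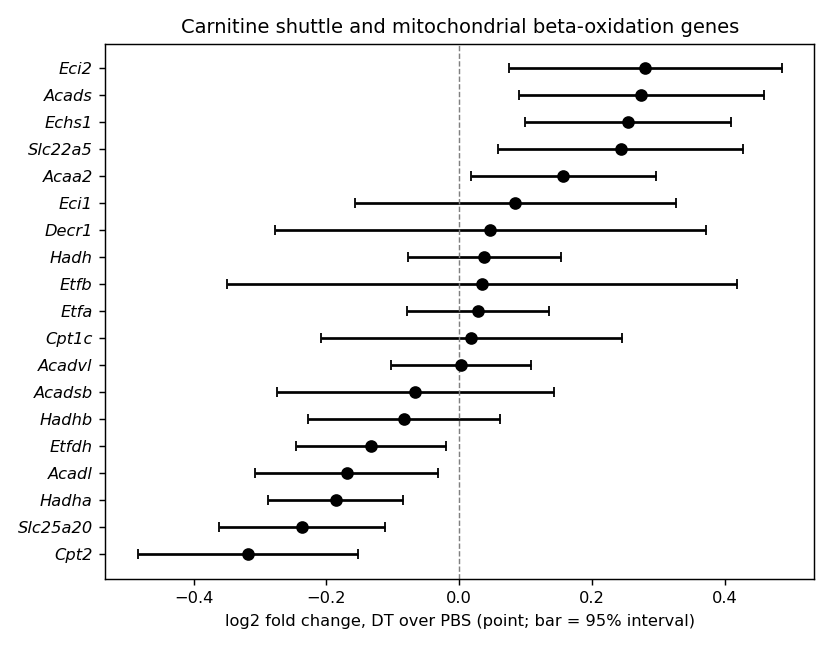
Log2 fold change (x axis, DT over PBS) with its 95% interval for each tested gene of the carnitine shuttle and mitochondrial beta-oxidation. Values lie on both sides of 0, from the lower genes Cpt2 (-0.32), Slc25a20 (-0.24) and Hadha (-0.19) to higher ones such as Echs1 (0.25).

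The counts of the next lists stand beside the same shares over all tested genes, 1.30% called by edgeR, 3.87% by DESeq2 and 15.4% at an unadjusted p under 0.05. Among the partners of the kinases, the pyruvate dehydrogenase complex, its phosphatases and the pyruvate carrier, 10 of 10 genes were tested and 0 were called by edgeR or DESeq2. Of these, 2 had an unadjusted p under 0.05: Pdp1, the phosphatase that reverses the kinases' action (log2 fold change 0.33, 6.75 ± 0.981 CPM in DT and 5.41 ± 0.976 CPM in PBS, edgeR's adjusted p = 0.207), and Dld, the E3 subunit (-0.21, adjusted p = 0.257). Pdp2 was at 0.14 and Pdhb, a subunit of E1, at 0.08, and the list's median was 0.08. Of 10 tested genes of fatty acid uptake and activation edgeR called 0 and DESeq2 called 1, with 4 at an unadjusted p under 0.05. The one DESeq2 called was Cd36, the fatty acid translocase, which had 2.35 ± 0.455 CPM in DT and 3.63 ± 0.902 CPM in PBS (-0.63, edgeR's adjusted p = 0.0845). Acsl3 was at -0.29, Slc27a1 at 0.18 and Acsl5 at -0.11, and the list's median was -0.02. Of 21 tested genes of glucose uptake, glycolysis and lactate handling, 0 were called by either tool and 2 had an unadjusted p under 0.05: Slc2a4, the insulin-regulated glucose transporter (0.38, edgeR's adjusted p = 0.171), and Slc16a3, a lactate exporter (-0.42, adjusted p = 0.251). Hk1 was at -0.08 and Pkm at -0.10, both turning to 0.02 and 0.01 with scaling by library size alone, and 14 of the 21 values were negative, with a median of -0.05.

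The remaining lists held regulators known to act on Pdk4, other genes induced by PPAR or FOXO, and lipid droplet and lipolysis genes. They had 0 calls by edgeR (beside 1.30% of all tested genes). Over all tested genes DESeq2 called 3.87% and 15.4% had an unadjusted p under 0.05. Of 11 tested PPAR receptors, partners and coactivators DESeq2 also called 0 and 2 had an unadjusted p under 0.05. Ppara, the fasting-responsive receptor of liver, was at 0.38, with 2.92 to 4.33 CPM in DT and 2.23 to 3.29 CPM in PBS (edgeR's adjusted p = 0.129), and Rxrb, Ppargc1b and Nrip1 were at 0.19, 0.18 and 0.06. Among 8 tested other PPAR targets 2 had an unadjusted p under 0.05 and DESeq2 called 0. Their log2 fold changes were positive for 4 and negative for 4, with a median of -0.00099. Among the genes of this list, Ucp2, a mitochondrial carrier, was at -0.20 (adjusted p = 0.181) and Acot2, a mitochondrial acyl-CoA thioesterase, at -0.11. Of 12 tested FOXO factors and FOXO-induced genes 1 had an unadjusted p under 0.05 and DESeq2 called the same 1, Klf15, a factor of amino acid and fuel use in fasting. Klf15 had 2.17 to 4.27 CPM in DT and 1.15 to 2.14 CPM in PBS, with no overlap (0.76, edgeR's adjusted p = 0.0634), and Foxo3, Ccng2 and Txnip were at -0.17, -0.11 and 0.22. Of 9 tested oestrogen-related receptors and other activators 0 had an unadjusted p under 0.05 and DESeq2 called 0, with E2f1 at -0.24, Cebpb at -0.16, Srebf1 at 0.10 and Esrra at 0.10. Of 11 tested lipid droplet and lipolysis genes 3 had an unadjusted p under 0.05 and DESeq2 called 1, Cidea, a droplet fusion protein, at 13.5 to 19.1 CPM in DT and 19.6 to 26.3 CPM in PBS (-0.38, edgeR's adjusted p = 0.0661). Mgll and Lipe, both lipases, were at -0.24 and -0.23 and Plin3 at 0.12, and the list's median of -0.13 was the lowest of the 10.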

How the data were processed

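RNA sequencing of 6 DT and 6 PBS samples was deposited as raw read counts per gene beside a normalized signal per gene (counts scaled between samples by the authors). Per the submitters' processing notes, cutadapt 2.10, TopHat2 2.1.1, HTSeq 2.01, DESeq2 1.36.0 and the GRCm39 build were used. The normalized signal as deposited by the authors entered no test. The deposited counts were blank for 6250 of 55414 genes, which were not used, and genes under a minimum count of 10 (edgeR's filterByExpr) were not tested. DT was compared with PBS with edgeR 4.0.16 in R 4.3.3 (TMM scaling, quasi-likelihood F test, two-sided, Benjamini-Hochberg adjustment over 14231 genes); DESeq2 1.42.0 and the other settings of the closing section were alternatives. The edgeR test and the correlations were checked on simulated data. CPM used TMM library sizes. Correlations used deviations of log2 CPM (prior count 2) from the group means and 100000 permutations within groups. Lengths are exon unions of GENCODE M21 on GRCm38, matched by gene ID, and promoter sequences are RefSeq on GRCm38.p6. Where 2 gene IDs had the symbol Aldoa, the one with more counts was used. Any 2 samples of a group differed beyond counting error (chi-square over degrees of freedom 6.81 to 61.7), so none was counted as a repeat of the same library. That check cannot tell whether 2 samples came from 1 mouse.

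The genes and lists were chosen with earlier results of these data known. Named in the text are Cd207, the 10 genes, the 4 tested genes of each list with the smallest p (some are not reported here), the 5 genes most like and the 5 most unlike Pdk4 within groups, and called or abundant members of the cell type marker lists. Summed endothelial markers were at 5.54 to 7.78 CPM in DT and 5.08 to 11.9 CPM in PBS. Macrophage markers were at 16.9 to 25.8 CPM in DT and 24.1 to 29.0 CPM in PBS. Adipocyte markers, mostly Lipe, were at 38.2 to 60.8 CPM in DT and 48.7 to 69.0 CPM in PBS. Fibroblast markers were at 264 to 332 CPM in DT and 254 to 338 CPM in PBS, nearly all Dcn (means 290 and 295 CPM). Col1a1, Col1a2 and Col3a1, at means of 0.482 to 1.44 CPM, were lower in DT (log2 fold change -0.93, -0.60 and -0.89). Of 5 tested fibroblast markers edgeR called 0 and DESeq2 1 (beside 1.30% and 3.87% of all tested genes). Langerhans cell markers were at 205 to 280.3 CPM in DT and 224 to 298 CPM in PBS. Of those 7 genes edgeR called 2 (beside 1.30%), Cd207 and Mfge8, both lower in DT. Cd1d1 was at 0.64 (edgeR's adjusted p = 0.210), Itgax at 0.18, Epcam at -0.03, Cd74 at -0.08 and H2-Ab1 at -0.13. The part of these markers in the results was not tested. The detection limit of 3 counts covers counting error only.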

Additional observations from a re-analysis of the deposited data

Results flagged for a closer look

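Of 96 groups of 6 values checked (the 10 genes and the genes named from the lists), 5 held a sample far from the rest of its group, against about 1 in 20 by chance, and none was one of the 10 fuel genes. Slc16a3 stood out in both groups, at 3.36 CPM in DT 6 (the other DT samples 2.29 to 2.60 CPM) and at 5.96 CPM in PBS 5 (the other PBS samples 2.85 to 3.42 CPM). Srebf1, a regulator of lipid synthesis, was at 44.7 CPM in DT 6 against 52.9 to 56.9 CPM in the other DT samples. Cidea was at 26.3 CPM in PBS 3 against 19.6 to 22.0 CPM in the other PBS samples. Nrip1, a corepressor of nuclear receptors, was at 55.8 CPM in PBS 5 against 63.3 to 66.7 CPM in the other PBS samples.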

How the results depend on the processing

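Pdk4 kept its direction under every setting tried. Its log2 fold change was -1.20 with DESeq2's size factors in edgeR (RLE), -1.17 with upper quartile scaling, -1.09 with library size alone and -1.20 with DESeq2, and its edgeR or DESeq2 adjusted p stayed under 0.05 in all of these. It ranged from -1.34 to -1.05 with single samples left out and was -0.75 (adjusted p = 0.140) on the side of PBS 5 and PBS 6, with 5 samples. The number of genes called over the whole table, 185, was 553 with library size alone (87.5% of them higher in DT, against 34.1% with TMM and 47.9% with upper quartile), 563 with DESeq2, 1325 with the first principal component as covariate, 371 with muscle markers as covariate, 1120 on the side of PBS 1, 3 on the other side, and 46 to 263 with single samples left out. Library size alone moved the median of all genes by 0.11 on the log2 scale. Over the pathway lists the count, 1, was 6 with library size alone, 3 with no filter, 7 with DESeq2, 23 with the principal component, 4 with the muscle covariate, 20 on the side of PBS 1, 0 on the other side, and 0 to 3 with single samples left out. Over the 9 other fuel genes the count, 0, was 1 with the principal component (Ppard) and 1 on the side of PBS 1 (Pdk1, log2 fold change 0.30, adjusted p = 0.0291). The cause of these shifts was not tested. Replicate numbers are shared by both groups but the labels do not say that they pair mice; the correlations of same-numbered samples were -0.325 to 0.107, 1 of 6 was over 0.1, and 0 of 6 DT samples correlated best with their own number. With the replicate block the count was 8 genes, 0 in the pathway lists and 0 among the 9 other genes, and Pdk4 was at -1.21 (adjusted p = 0.0165).

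Values without a call that changed sign were as follows. With library size alone Cpt1a was at 0.022, Ppargc1a at 0.021, Hk1 at 0.023, Pkm at 0.0073 and the r of Pdk4 with Ppard was -0.103. On the side of PBS 1 Cpt1a was at 0.060 and Plin2 at -0.076, and on the other side Pdk1 was at -0.015, Pdk2 at -0.058, Ppargc1a at 0.12 and Srebf1 at -0.052. Without the 2 samples farthest in Pdk4 its r was 0.00921 with Pdk1, 0.129 with Pdk2, -0.0267 with Plin2, -0.0274 with Ppard and -0.0103 with Ppargc1a, and in DT alone -0.0930 with Acadm and -0.0410 with Ppard. With single samples left out the log2 fold change of Ppargc1a ranged from -0.23 to 0.036, and the r of Pdk4 from -0.0759 to 0.314 with Acadm, -0.0575 to 0.393 with Ppard, -0.0224 to 0.502 with Plin2 and -0.0299 to 0.442 with Ppargc1a. Depth limits what can be said of Ppargc1a and Angptl4, whose levels lie closest to the detection limit.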
